A study of Homo sapiens with 4 samples.

Results

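The genes described here build the contacts between neighbouring epithelial cells: cadherins and catenins of adherens junctions, desmosomes, tight junctions, nectins, gap junctions, and the surface protease matriptase with its inhibitors. They are 46 named genes of the 55764 gene names in the deposited table, found by their symbols and chosen for what they encode. The choice was made with earlier results of these data known. All 46 were found. Bulk RNA-seq was made of 4 libraries of TE5, a cell line from a human squamous carcinoma of the oesophagus. In 2 of them (ETS1 1 and ETS1 2) the genotype is labelled as ETS1 overexpression: the cells received ETS1, a transcription factor of the ETS family, from a CMV-promoter vector carried by a lentivirus. The 2 control libraries (control 1 and control 2, genotype labelled WT) come from TE5 cells given a vector backbone, per the labels. The protocol text names CMV vectors and also pLKO.1 TRC, and does not say which backbone the controls carry. Virus made in HEK293T cells was added with Polybrene, and all cells were grown in RPMI-1640 with serum and penicillin-streptomycin. The labels do not say whether each group is a pool or a clone, nor whether its libraries come from separate cultures. The p-values therefore measure only the spread between these libraries, which may be technical.

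In an adherens junction, classical cadherins of neighbouring cells bind each other outside the cell, and catenins bind their tails and link them to actin. Desmosomes pair desmocollins with desmogleins and tie them through plakoglobin, plakophilins and desmoplakin to keratin filaments, a contact that squamous epithelium is rich in. Tight junctions seal the space between cells with claudins and occludin on a base of ZO proteins, while gap junctions of connexins join the cytoplasm of neighbours. Epithelial-mesenchymal transition, which the title of the study names, is classically described by loss of E-cadherin and gain of N-cadherin.

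Levels are FPKM, read fragments divided by gene length and by library size, as deposited. Changes are ETS1 minus control on the log2(FPKM + 1) scale, which understates the change of weakly expressed genes, and are given with a standard error (SE). A gene was tested with limma where its mean over the 4 libraries was at least 1 FPKM, and is said to have risen or fallen where the p-value adjusted over all 14306 tested genes was under 0.05. ETS1 itself stood at 0.491 and 0.509 FPKM in the controls and at 1.84 and 1.87 in the ETS1 libraries, a change of 0.93 (SE 0.0617, adjusted p = 0.000704). It reached the level for a test only through the ETS1 group, so the values by library are the check of the labels. The libraries hold 40356767 and 44119639 recovered reads in the controls and 57269587 and 56502812 in the ETS1 group. The ETS1 libraries are thus 1.35 times as deep on average, and depth runs with the groups. Of 7 squamous cell markers none reached the level for a test. KRT5, KRT14, KRT6A and TP63 were at 0 in both controls, and the summed level of the list was 0.544 and 0.678 FPKM in the controls and 1.34 and 1.16 in the ETS1 libraries, nearly all of it SFN. The defining squamous markers are therefore all but absent from a line labelled as squamous carcinoma. KRT8 and KRT18, keratins of simple epithelia, stood at 3.91 and 3.87 and at 10.2 and 10.5 FPKM in the controls. In the ETS1 libraries they stood at 6.48 and 6.59 and at 8.35 and 8.29. KRT7 and KRT19, also keratins of simple epithelia, were at or below 0.0469 and 0.0224 FPKM in every library. Markers of other cells were low, with a summed level of at most 0.0789 FPKM for the 3 endothelial genes VWF, CDH5 and KDR. The 6 fibroblast genes summed to 2.28 and 2.13 FPKM in the controls and 3.09 and 3.19 in the ETS1 libraries, nearly all of it COL1A1. PTPRC, the common leukocyte marker, was at or below 0.0117 FPKM in every library. The part of these genes in the results below was not tested.

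Of the 46 junction genes, 28 were tested and 18 were too low. Among the 28, 14 rose (50%), 5 fell (17.9%) and 9 did not pass. Calls were common in these libraries: 59.1% of all tested genes passed, 30.7% higher and 28.4% lower, beside 67.9% of the tested members. The members' share of rises is thus above that of all tested genes and their share of falls is below it. The second gap is small with the median of the 50 nearest tested genes removed, a step added after seeing the data, where 28.6% of the 28 members and 30.0% of 12564 genes fell. With no filter on low values it turns round, with 15.2% of the 46 members and 9.24% of 35055 genes called lower. Of those 35055 genes 14306 averaged at least 1 FPKM, as did 28 of the 46 members, so the shares rest on unlike mixes. The falls added were CLDN4 and CLDN6. The ETS1 and control libraries did not overlap for 23 of the 28 genes, or 82.1%, against 82.0% of all tested genes. Both ETS1 libraries were above both controls for 15 genes (43.1% of all tested genes) and below them for 8 (38.9%). Only 4 members both passed and changed by at least 0.5 (14.3%, against 10.6% of all tested genes). These were SPINT2, MLLT4, DSC2 and PVRL3, and all rose. The count was 2 with the chromosome median, the median of the 50 nearest tested genes or a trend on gene length removed. By the authors' values it was 7 of 32. The median change of the 28 was 0.13, where that of all tested genes was 0.016. In bulk RNA, fewer cells with a transcript and less of it per cell cannot be told apart.

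**Figure D1:**
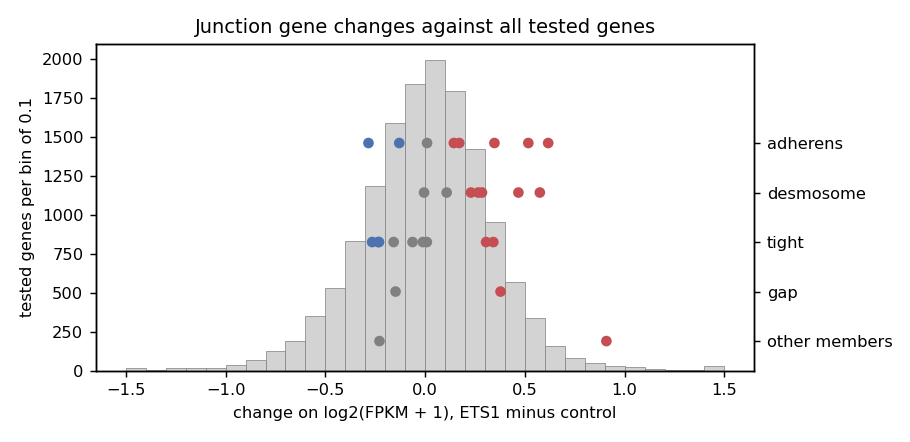
Histogram of the change on log2(FPKM + 1), ETS1 minus control, for the 14306 tested genes in bins of 0.1, with the 28 tested junction genes marked by their calls. The end bins hold all values beyond 1.5 in either direction, and the junction genes lie between -0.28 and 0.91.

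Calls are given here by junction type. In the desmosome list 5 of 7 tested genes rose and none fell, with a median change of 0.27. In the tight junction list 2 of 9 rose (22.2%) and 3 fell (33.3%), shares near those of all tested genes (30.7% and 28.4%), with a median of -0.063. The 8 tested genes of adherens junctions (cadherins, catenins, nectins and afadin) held 5 rises and 2 falls, with a median of 0.16. No test of one list against another was made. Summed over the list, desmosome transcripts stood at 122.3 and 118.1 FPKM in the controls and at 151.1 and 154.8 in the ETS1 libraries. Tight junction transcripts summed to 44.9 and 43.9 against 41.1 and 44.3, and those 2 ranges overlap.

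**Figure D2:**
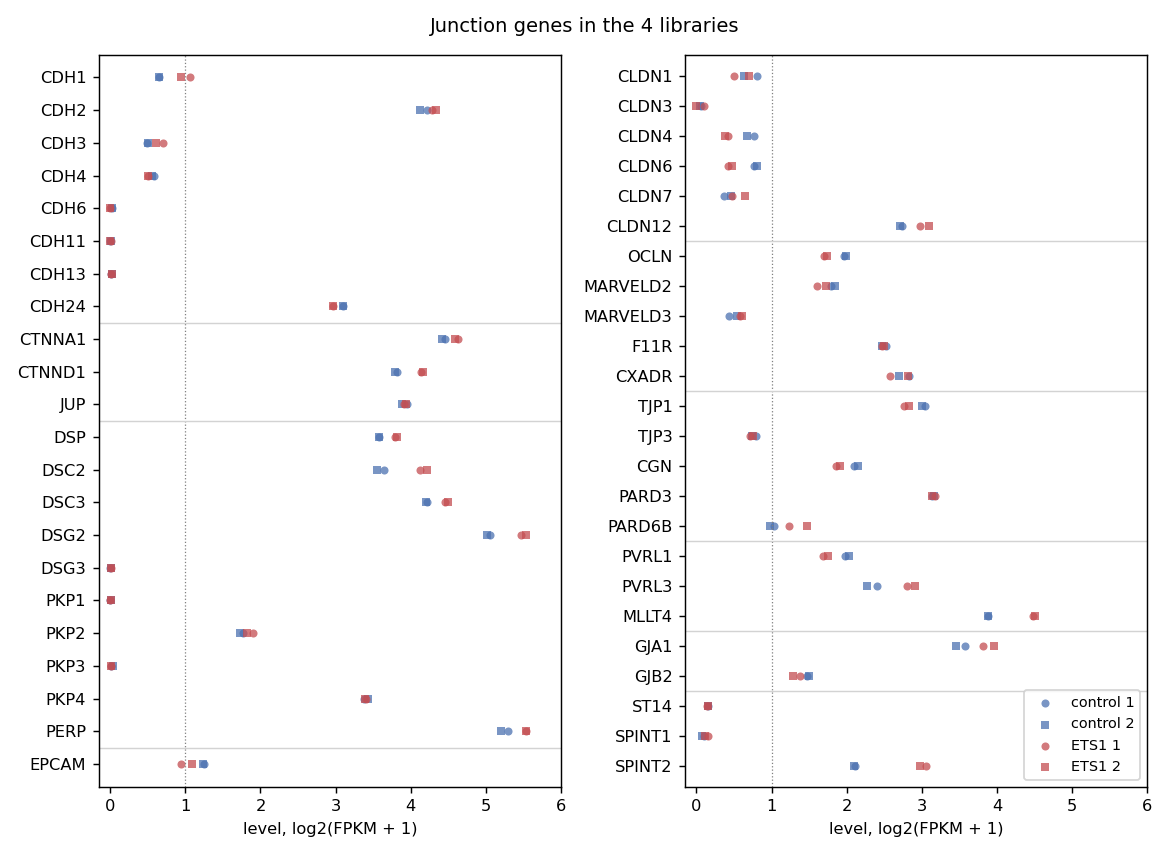
Level of each of the 46 junction genes in each of the 4 libraries on the log2(FPKM + 1) scale, by junction type, with the dotted line at 1 FPKM. The desmosome genes PERP and DSG2 are the most abundant members, and 18 genes have a mean below it.

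Among the cadherins, N-cadherin (CDH2, chromosome 18, 27950966 to 28177446) was the abundant one and E-cadherin (CDH1, chromosome 16, 68737225 to 68835548) was low in every library. CDH2 stood at 17.5 and 16.4 FPKM in the controls and at 18.4 and 19.2 in the ETS1 libraries. The groups did not overlap, and the rise was 0.14 (SE 0.0446, adjusted p = 0.0429). The 50 tested genes nearest to CDH2 had a median change of 0.21. With that local median removed, the change of CDH2 was -0.066 (adjusted p = 0.161), and the call was kept under 6 of 16 other settings. CDH1 stood at 0.571 and 0.567 FPKM in the controls and at 1.08 and 0.916 in the ETS1 libraries, or 142 and 154 reads against 381 and 319. Both ETS1 libraries were thus higher. CDH1 was below the level for a test here (0.35 and adjusted p = 0.0537 in a fit with no filter), and in the authors' deposited table its log2 fold change is 0.71 (adjusted p = 0.000123). The ratio of CDH2 to CDH1 FPKM was 30.7 and 28.9 in the controls and 17.1 and 21.0 in the ETS1 libraries, so it was lower in both ETS1 libraries.

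P-cadherin (CDH3), which neighbours CDH1 on chromosome 16, lay at 0.401 and 0.421 FPKM in the controls and at 0.631 and 0.526 in the ETS1 libraries. An antisense gene overlaps 11.1% of its exon bases, and whether strand was used in counting is not given in the sources used here. CDH4, a cadherin of retina and brain, lay at 0.493 and 0.475 against 0.412 and 0.421. Neither was tested. CDH24, a type II cadherin, was the other cadherin with enough signal: it fell by 0.13 (SE 0.0323, adjusted p = 0.0225), from 7.56 and 7.58 FPKM to 6.83 and 6.84. The adjusted p rose to between 0.0564 and 0.118 when any 1 library was left out, and the authors' deposited table gives 0.0665. The mesenchymal cadherins CDH11 and CDH13 were at or below 0.0149 FPKM in every library. CDH6, a cadherin of kidney, was counted in 8 and 10 control reads, against 0 and 1 in the deeper ETS1 libraries.

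The catenins that bind cadherin tails were abundant. p120 catenin (CTNND1), which keeps cadherins at the surface, rose from 13.1 and 12.9 FPKM to 16.5 and 17.0 (0.35, SE 0.0313, adjusted p = 0.00127). It passed under all 16 other settings, and was 0.23 with the trend on gene length removed. Alpha-catenin (CTNNA1), the link to actin, rose from 21.0 and 20.5 FPKM to 23.9 and 23.1 (0.17, SE 0.0326, adjusted p = 0.00986). That call was lost with the median of its chromosome removed (0.079, adjusted p = 0.0847), with the length trend removed (0.052, adjusted p = 0.24) and without ETS1 library 1 (0.15, adjusted p = 0.0663). Plakoglobin (JUP), shared by adherens junctions and desmosomes, stood at 14.5 and 13.8 FPKM in the controls and at 14.1 and 14.3 in the ETS1 libraries. Its groups overlap, and the change of 0.0097 (SE 0.0368) did not pass (adjusted p = 0.836). Beta-catenin (CTNNB1), which is no member and is named after its values were seen, was at 35.9 and 33.6 FPKM against 33.4 and 33.2 (-0.059, adjusted p = 0.236).

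Among the 7 tested desmosome genes, the 2 largest rises were those of the desmosomal cadherins DSC2 and DSG2. Desmocollin 2 (DSC2), desmocollin 3 (DSC3) and desmoglein 2 (DSG2) sit in 1 cluster on chromosome 18, between 30990008 and 31549008 on GRCh38. DSC2 stood at 11.5 and 10.7 FPKM in the controls and at 16.5 and 17.5 in the ETS1 libraries. Both ETS1 libraries were above both controls, and the rise was 0.57 (SE 0.0506, adjusted p = 0.0012). DSG2, the widespread desmoglein, rose from 32.2 and 31.2 FPKM to 43.1 and 45.4 (0.47, SE 0.0368, adjusted p = 0.00097). DSC3 rose less, from 17.6 and 17.4 FPKM to 20.9 and 21.5 (0.27, SE 0.0305, adjusted p = 0.00225). The gene length behind the deposited DSC2 level came out as 5240 bases, where the exons of GENCODE 29 span 12495, so its level against other genes depends on the annotation. The ratio of DSC3 to DSC2 was 1.52 and 1.63 in the controls and 1.27 and 1.23 in the ETS1 libraries. The 3 genes together summed to 61.3 and 59.3 FPKM against 80.5 and 84.4.

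Neighbouring genes on chromosome 18 also lay higher in the ETS1 libraries: the median change of the 50 nearest tested genes was 0.18 at DSC2, 0.19 at DSC3 and 0.18 at DSG2, and that of all 173 tested genes of the chromosome was 0.14. With the local median removed, DSC2 was 0.39 (adjusted p = 0.000861) and DSG2 was 0.29 (adjusted p = 0.00104). DSC3 was then 0.076 and did not pass (adjusted p = 0.069). DSG3, the desmoglein of stratified epithelium in the same cluster, was at 0 and 1 reads in the controls, against 1 and 2.

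On the inner side of the desmosome, desmoplakin (DSP), which binds keratin filaments, rose from 10.9 FPKM in each control to 12.9 and 13.0 (0.23, SE 0.0298, adjusted p = 0.00315). The change was 0.15 with the local median removed and 0.095 with the length trend removed (adjusted p = 0.0477). PERP, a membrane protein of desmosomes and a target of p53 and p63, rose from 38.4 and 35.8 FPKM to 45.4 and 45.3, a change of 0.28 (SE 0.0404, adjusted p = 0.004). The plakophilins, which cluster desmosomal cadherins, did not pass. PKP2 stood at 2.42 and 2.31 FPKM against 2.73 and 2.52 (0.11, SE 0.0543, adjusted p = 0.146). PKP4, a p120-related protein, had overlapping groups, at 9.36 and 9.78 against 9.56 and 9.49 (-0.0055, adjusted p = 0.905). It was -0.15 (adjusted p = 0.0358) with the local median removed and -0.13 (adjusted p = 0.0367) with the length trend removed. PKP1 and PKP3, the plakophilins of stratified epithelium, had at most 4 reads in any library.

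**Figure D3:**
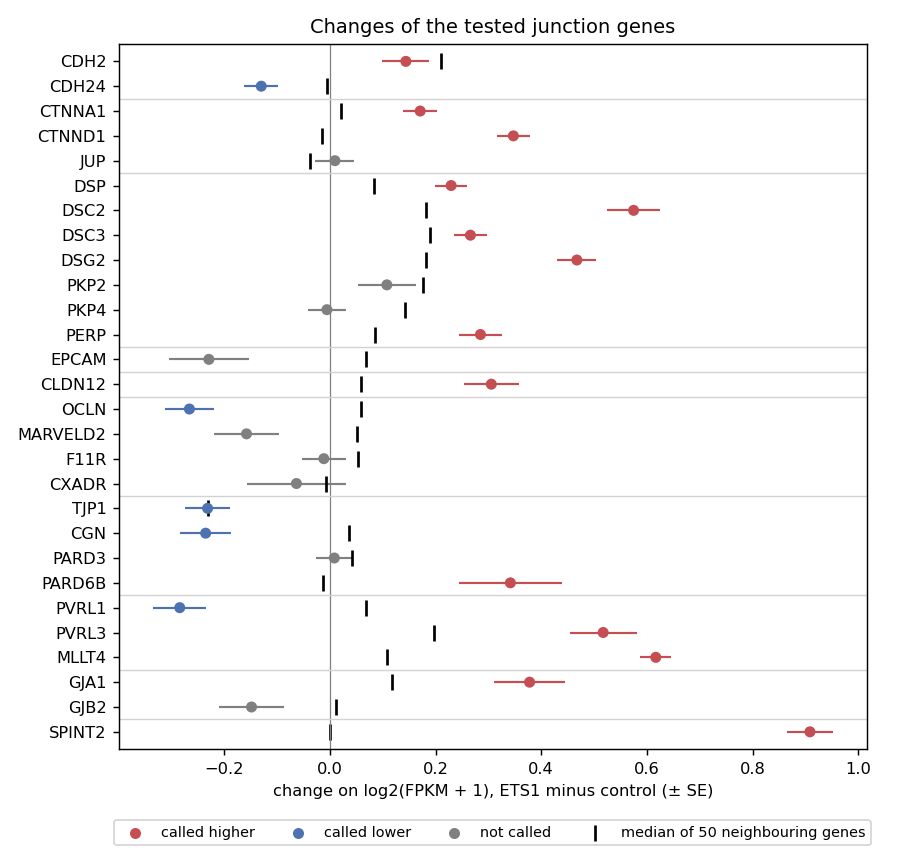
Change of the 28 tested junction genes on log2(FPKM + 1), ETS1 minus control; points are estimates, horizontal lines are 1 SE on each side, colours give the call, and black ticks give the median change of the 50 nearest tested genes. SPINT2 at 0.91 lies farthest to the right, and the estimate for TJP1 lies on its neighbours' median.

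Nectins are immunoglobulin-like adhesion molecules that afadin ties to actin. Afadin (MLLT4, now AFDN, chromosome 6, 167826922 to 167972023) rose from 13.7 FPKM in each control to 21.3 and 21.8 in the ETS1 libraries. The change was 0.62 (SE 0.0294, adjusted p = 0.000482), and the call was kept under all 16 other settings, at 0.45 to 0.65. Nectin-3 (PVRL3) rose from 4.28 and 3.83 FPKM to 5.98 and 6.48 (0.52, SE 0.0631, adjusted p = 0.00267), and was 0.32 with the local median removed. Nectin-1 (PVRL1) fell by 0.28 (SE 0.0505, adjusted p = 0.00796), from 2.94 and 3.07 FPKM to 2.22 and 2.36. The ratio of PVRL3 to PVRL1 was 1.45 and 1.25 in the controls and 2.70 and 2.75 in the ETS1 libraries. Nectin-4 (PVRL4), no member, rose from 1.4 and 1.2 FPKM to 3.16 and 3.33 (0.89, SE 0.065, adjusted p = 0.00083). Its ratio to PVRL1 went from 0.475 and 0.391 to 1.42 and 1.41.

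The transmembrane proteins of the tight junction were mostly low. Occludin (OCLN, chromosome 5, 69492292 to 69558104) fell by 0.27 (SE 0.0465, adjusted p = 0.00757), from 2.91 and 2.97 FPKM in the controls to 2.24 and 2.32. Both ETS1 libraries were below both controls, and the call was kept under all 15 other settings. A partial copy, the pseudogene OCLNP1, lies on the same chromosome, and reads shared with it could be counted to either. Its relative tricellulin (MARVELD2), which seals contacts of 3 cells, stood at 2.47 and 2.60 FPKM against 2.04 and 2.30 and did not pass (-0.16, SE 0.0622, adjusted p = 0.0828). It passed under 5 of 15 other settings, the farthest being -0.26 with limma's voom on recovered reads (adjusted p = 0.0189). MARVELD3 lay at 0.345 and 0.456 FPKM against 0.500 and 0.525, with 16.6% of its exon bases shared with PHLPP2 on the other strand. JAM-A (F11R), an immunoglobulin-like protein, had overlapping groups, at 4.76 and 4.55 FPKM against 4.55 and 4.67 (-0.011, adjusted p = 0.828). A second gene model shares 36.6% of its exon bases, so its counts are uncertain. The adenovirus receptor CXADR overlapped too, at 6.11 and 5.48 FPKM against 4.98 and 6.06 (-0.063, adjusted p = 0.591).

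Claudin 12 (CLDN12) was the claudin member with enough signal for a test. It rose from 5.66 and 5.56 FPKM to 6.83 and 7.52 (0.31, SE 0.0519, adjusted p = 0.00686). On the same strand its exon bases are shared with CDK14 (2.98%), GTPBP10 (5.15%), AC002456.2 (4.09%) and AC006153.1 (5.5%). How reads there were counted is not given in the sources used here. The other 5 claudins were under 1 FPKM. Claudin 4 (CLDN4) stood at 0.706 and 0.588 FPKM in the controls and at 0.338 and 0.301 in the ETS1 libraries, or 134 and 122 reads against 91 and 80. Claudin 6 (CLDN6), known from embryonic epithelium, stood at 0.697 and 0.741 against 0.341 and 0.386, on 49 and 57 reads against 34 and 38. Both ETS1 libraries lay below both controls for each, and a fit with no filter called both lower (-0.32, adjusted p = 0.0478 for CLDN4; -0.33, adjusted p = 0.0322 for CLDN6). The authors' deposited table gives CLDN6 a log2 fold change of -0.62 and an adjusted p of 0.0284. CLDN9, a related neighbouring claudin gene and no member, stood at 1.12 and 1.25 FPKM against 0.322 and 0.258, and the authors' deposited table gives it -1.93 (adjusted p = 1.5e-08). Claudin 1 (CLDN1), the main claudin of skin, overlapped between groups, at 0.749 and 0.555 FPKM against 0.418 and 0.621. Claudin 7 (CLDN7) stood at 0.288 and 0.372 against 0.392 and 0.560, and claudin 3 (CLDN3) had at most 5 reads.

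Under the membrane, ZO-1 (TJP1) and cingulin (CGN) fell. TJP1, the scaffold that joins claudins to actin, went from 7.27 and 6.98 FPKM to 5.76 and 6.08 (-0.23, SE 0.0426, adjusted p = 0.00885). Its neighbours on chromosome 15 had the same median change, -0.23, as had all 413 tested genes of that chromosome. With the local median removed the change of TJP1 was -0.00090 (adjusted p = 0.986), and without ETS1 library 1 the adjusted p was 0.0519. CGN, on chromosome 1, fell by 0.23 (SE 0.0477, adjusted p = 0.0119), from 3.26 and 3.42 FPKM to 2.63 and 2.75. Its local median was 0.037, and the adjusted p was 0.0684 without ETS1 library 1. ZO-3 (TJP3) was under 1 FPKM in all 4 libraries, at 0.729 and 0.672 against 0.645 and 0.682.

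Of the polarity proteins that place the tight junction, PARD3 had overlapping groups, at 7.82 and 7.93 FPKM against 8.07 and 7.79 (0.0085, adjusted p = 0.85). PARD6B rose from 1.05 and 0.971 FPKM to 1.34 and 1.76 (0.34, SE 0.0972, adjusted p = 0.0333). The call was lost under 6 of 15 other settings, among them leaving out control 1 (0.0665), control 2 (0.0971) or ETS1 library 2 (0.124). Its relative PARD6A, no member, fell by 0.73 (SE 0.0597, adjusted p = 0.00102), from 4.87 and 4.59 FPKM to 2.60 and 2.31. The ratio of PARD6B to PARD6A thus went from 0.215 and 0.211 to 0.517 and 0.761.

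**Figure D4:**
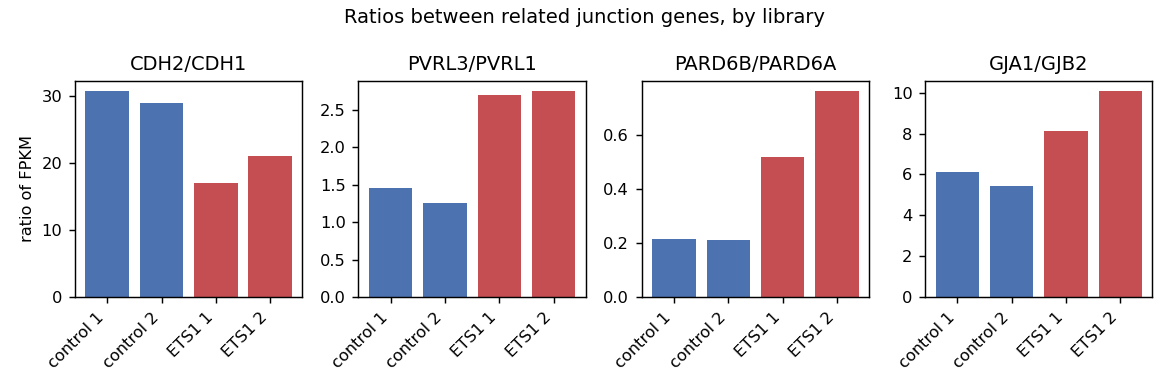
Ratios of FPKM between related junction genes in each of the 4 libraries, with bars from 0 and no error bars since each bar is 1 library. PVRL3 over PVRL1, PARD6B over PARD6A and GJA1 over GJB2 are higher in both ETS1 libraries than in both controls, and CDH2 over CDH1 is lower.

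Connexin 43 (GJA1), the widespread gap junction protein, rose from 10.9 and 9.94 FPKM to 13.1 and 14.6 (0.38, SE 0.0664, adjusted p = 0.00768). Connexin 26 (GJB2) stood at 1.77 and 1.83 FPKM against 1.61 and 1.45 and did not pass (-0.15, SE 0.0609, adjusted p = 0.0916), though it did under 3 of 15 other settings. The ratio of GJA1 to GJB2 was 6.13 and 5.45 in the controls and 8.15 and 10.1 in the ETS1 libraries. EPCAM, an adhesion molecule of simple epithelia, stood at 1.37 and 1.36 FPKM in the controls and at 0.915 and 1.12 in the ETS1 libraries. Both ETS1 libraries were lower, and the change of -0.23 (SE 0.0763) did not pass (adjusted p = 0.0525). Over 15 other settings the change ran from -0.15 to -0.46, the latter with voom on recovered reads, and the adjusted p from 0.0119 to 0.217, passing in 6.

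SPINT2, a Kunitz-type inhibitor of the surface protease matriptase, had the largest change of the 28 tested members. It stood at 3.32 and 3.29 FPKM in the controls and at 7.29 and 6.88 in the ETS1 libraries, a ratio of means of 2.14. The rise was 0.91 (SE 0.0428, adjusted p = 0.000482), with a median change of 0.001 for its neighbours on chromosome 19, and it passed under all 16 other settings. Its target matriptase (ST14) was at 20 and 21 reads in the controls, against 25 and 27 in the ETS1 libraries, or 0.114 and 0.109 against 0.10 and 0.11 FPKM. The related inhibitor SPINT1 had 10 and 9 reads against 22 and 17. SPINT2 transcripts were therefore 29.2 and 30.0 times the level of ST14 in the controls and 72.6 and 62.6 times in the ETS1 libraries.

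Other genes of the same junctions, from a list of 90 that are no members, were read from the same fit. Of 31 tested, 15 rose (48.4%, beside 30.7% of all tested genes) and 9 fell (29%, beside 28.4%), with a median change of 0.12. The largest rises were GJB7, a connexin, from 0.600 and 0.712 FPKM to 2.59 and 2.56 (1.11), which reached the level for a test only through the ETS1 group, then PVRL4, the polarity gene LLGL1 (0.61, from 8.51 and 8.31 to 13.5 and 13.1 FPKM) and the channel gene PANX1 (0.48, from 4.11 and 4.19 to 6.32 and 6.05). The largest falls were PARD6A, the connexin gene GJA3 (-0.45, from 2.11 and 1.80 to 1.05 and 1.27 FPKM), the catenin relative CTNNAL1 (-0.45, from 40.1 and 41.8 to 30.4 and 29.2) and the poliovirus receptor PVR (-0.29, from 24.5 and 25.5 to 20.4 and 20.1). Each of the 7 besides GJB7 passed with an adjusted p of at most 0.00984.

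Transcription factors known to repress or activate junction genes, with the splicing regulators ESRP1 and ESRP2, were read from a list of 20. Of the 9 tested, 6 rose (66.7%, beside 30.7% of all tested genes) and 1 fell (11.1%, beside 28.4%). SNAI2, a zinc finger repressor of the E-cadherin gene, rose from 4.86 and 4.54 FPKM to 26.9 and 28.4 (2.33, SE 0.0459, adjusted p = 0.000207). Its relatives ZEB1 and ZEB2 rose by 0.32 (from 2.85 and 2.75 to 3.51 and 3.97 FPKM) and 0.24 (from 1.59 and 1.73 to 2.09 and 2.21). KLF5 rose by 0.32, KLF4 by 0.22 and TCF3 by 0.091 (adjusted p = 0.0486), and the authors' deposited table calls neither KLF4 (adjusted p = 0.0678) nor TCF3 (adjusted p = 0.206). FOXA1, a factor of simple epithelia, fell by 0.34. No call was made for TWIST1 (0.18, adjusted p = 0.0874), nor for SNAI1 (0.034, adjusted p = 0.66). The other 11 averaged under 1 FPKM, and 3 of them are named after their values were seen. ESRP2, an epithelial splicing regulator, stood at 0.307 and 0.309 FPKM in the controls and at 1.33 and 1.22 in the ETS1 libraries, and the authors' deposited table gives it 1.99 (adjusted p = 1.02e-20). TWIST2, a repressor related to TWIST1, stood at 0.294 and 0.308 FPKM against 1.17 and 1.02, with 1.58 in the authors' deposited table (adjusted p = 0.000317). GRHL2, an activator of E-cadherin and claudin genes, was at or below 0.0173 FPKM in every library. In the ETS1 libraries SNAI2 and CDH1 were both above the controls.

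SNAI and ZEB proteins bind the E-box CACCTG, so promoters of the members were searched for it. RefSeq promoter windows on GRCh38.p14, 250 bases before to 50 after the start, were matched for 28 of the 46 genes. Only the first listed window of a gene was used, which need not be its main promoter. The window of CTNNA1 starts at 138753175 and its gene at 138610967, and that of CDH4 starts at 61499171 and its gene at 61252426. CACCTG or its reverse complement CAGGTG was in 10 of these 28 windows, and in 20.6% of 35116 RefSeq windows of the same length. Of 11 matched members that rose, 4 held it, and of 3 that fell, 2 did. The ETS motif CCGGAAG, searched on both strands, was in 0 of the 28 windows and in 10.3% of all windows. A match is a run of letters and not a binding site. The windows below are those of the called members that hold the E-box, to show that it lies in promoters of genes that rose (DSP, DSC2, DSG2, MLLT4) and that fell (OCLN, TJP1). They are written 5′ to 3′ on the gene's strand with the E-box in capitals: DSP at chr6:7541421-7541720 (plus), DSC2 at chr18:31102372-31102671 (minus), DSG2 at chr18:31497927-31498226 (plus), MLLT4 at chr6:167827385-167827684 (plus), OCLN at chr5:69492297-69492596 (plus) and TJP1 at chr15:29969000-29969299 (minus).
DSP: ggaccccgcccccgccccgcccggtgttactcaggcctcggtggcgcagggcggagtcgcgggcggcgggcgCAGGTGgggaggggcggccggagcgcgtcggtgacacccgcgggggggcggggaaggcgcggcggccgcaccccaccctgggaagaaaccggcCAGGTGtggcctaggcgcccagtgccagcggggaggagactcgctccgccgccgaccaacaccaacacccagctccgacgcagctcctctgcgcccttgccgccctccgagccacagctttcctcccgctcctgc
DSC2: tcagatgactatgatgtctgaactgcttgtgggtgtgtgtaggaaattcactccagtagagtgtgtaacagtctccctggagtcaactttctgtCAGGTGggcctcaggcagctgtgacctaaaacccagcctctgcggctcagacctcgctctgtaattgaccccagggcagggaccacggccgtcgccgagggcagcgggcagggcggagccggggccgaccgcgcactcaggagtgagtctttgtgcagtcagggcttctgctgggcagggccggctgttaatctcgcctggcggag
DSG2: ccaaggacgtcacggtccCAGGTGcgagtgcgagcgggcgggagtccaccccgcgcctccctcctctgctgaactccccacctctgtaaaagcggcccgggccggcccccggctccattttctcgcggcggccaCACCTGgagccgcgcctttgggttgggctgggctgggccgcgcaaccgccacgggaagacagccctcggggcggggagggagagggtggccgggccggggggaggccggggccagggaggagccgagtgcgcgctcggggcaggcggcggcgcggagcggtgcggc
MLLT4: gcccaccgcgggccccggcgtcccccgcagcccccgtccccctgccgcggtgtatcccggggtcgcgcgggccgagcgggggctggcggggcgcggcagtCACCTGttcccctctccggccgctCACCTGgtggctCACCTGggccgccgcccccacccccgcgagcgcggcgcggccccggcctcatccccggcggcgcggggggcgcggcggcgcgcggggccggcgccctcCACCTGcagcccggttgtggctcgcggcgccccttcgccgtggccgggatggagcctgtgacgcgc
OCLN: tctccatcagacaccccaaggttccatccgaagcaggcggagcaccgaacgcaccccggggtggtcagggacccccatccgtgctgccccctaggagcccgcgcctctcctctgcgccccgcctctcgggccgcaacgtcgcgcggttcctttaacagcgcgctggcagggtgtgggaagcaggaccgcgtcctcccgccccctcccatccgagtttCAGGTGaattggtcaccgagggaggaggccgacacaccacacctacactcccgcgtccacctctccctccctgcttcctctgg
TJP1: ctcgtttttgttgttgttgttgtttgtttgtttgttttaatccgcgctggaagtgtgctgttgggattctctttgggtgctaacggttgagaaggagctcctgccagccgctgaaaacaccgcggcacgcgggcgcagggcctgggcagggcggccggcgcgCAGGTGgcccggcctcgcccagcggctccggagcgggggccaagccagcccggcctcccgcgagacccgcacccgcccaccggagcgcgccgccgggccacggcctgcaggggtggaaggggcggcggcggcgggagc
The MLLT4 window holds 4 copies, those of DSP and DSG2 hold 2 each, and the others hold 1.

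The authors' deposited table gives an adjusted p for 32 members, of which 15 are higher and 5 lower, where 51.2% of 15683 genes with a value pass (25.3% higher, 25.9% lower). Of the 19 members called here, 18 are called there too, and CDH24 is not. CDH1 and CLDN6 are called there and were below the filter of 1 FPKM here. Across all other settings run for a gene, 10 of the 14 rises kept their call (CTNND1, DSP, DSC2, DSG2, PERP, CLDN12, PVRL3, MLLT4, GJA1 and SPINT2), as did 2 of the 5 falls (OCLN and PVRL1).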

How the data were processed

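Gene levels were measured by bulk RNA-seq in 2 control and 2 ETS1 libraries of TE5. The authors used HISAT2, HTSeq and DESeq2 with the build hg38/GRCh38, per the submitters' processing notes; versions, annotation and use of strand are not given in the sources used here. FPKM per gene was computed and deposited by the authors. A second table, per the file headers, holds the authors' mean normalized count per gene (a signal averaged over the libraries), their log2 fold change and its standard error, and their p-value and adjusted p-value; it covers 16652 genes, those whose FPKM averaged 0.5 or more, and its adjusted p-value is missing for 969 genes.

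FPKM was taken as log2(FPKM + 1) for the 14306 genes averaging at least 1, and groups were compared with limma 3.58.1 in R 4.3.3 (group term, intensity trend, 2 residual and 2.84 prior degrees of freedom, two-sided, Benjamini-Hochberg over all tested genes, threshold 0.05). An exact permutation test of 2 against 2 cannot go below p = 0.333. Reads were recovered from FPKM and the authors' mean counts: for 2885 genes whose mean normalized count was under 100, 99.3% of values came within 0.05 of a whole number (10% by chance), and 94.7% did for the 8566 most abundant genes. For genes outside the second table, reads are whole numbers that match the GENCODE 29 exon length. Positions are from GENCODE 29 on GRCh38, matched by name for 88.1% of tested genes. On simulated data with 200 changed genes among 14306 tested, 89% were recovered and 10.1% of calls were false, above the share that the threshold of 0.05 aims at. The simulated log2 changes were at least 0.5, and the same added noise was used for every gene. In the data 59.1% of tested genes pass, so the simulated shares do not carry over.

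Members and lists were chosen with earlier results of these data known. Every member is named, with the 4 largest called rises and falls among other junction genes, the regulators tested, ETS1 and cell type markers; some genes of these lists are not reported here. Alternatives were another pseudocount (0.1), no filter or at least 5 FPKM, trimmed-mean or quantile scaling, a replicate block, no intensity trend, voom on recovered reads, the authors' values, removal of the chromosome median or length trend, leaving out each library, and, chosen after seeing the data, removal of the median of the 50 nearest tested genes.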

Additional observations from a re-analysis of the deposited data

How the results depend on the processing

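The 18 untested members were left out by the filter of 1 FPKM. With no filter all 46 were tested, 12 were higher (26.1%, beside 10.3% of 35055 genes) and 7 lower (15.2%, beside 9.24%). The share of falls was then above that of all genes. Those shares rest on unlike mixes, since 28 of the 46 members but 14306 of the 35055 genes averaged at least 1 FPKM. The lower calls added were CLDN4 and CLDN6. Among the 18, DSG3, PKP1, PKP3 and CLDN3 had at most 5 reads in any library, too few to show a difference. With at least 5 FPKM required, 19 members were tested, 13 rose (68.4%, beside 31.2% or 2562 of 8215 genes) and 2 fell (10.5%, beside 36.5% or 3000 genes), and 7 other junction genes rose, since fewer genes were tested. With the local median removed 8 members fell (28.6%, beside 30.0% of all genes). Members called with a change of at least 0.5 numbered 4 of 28 in the main fit (14.3%, beside 10.6% of all tested genes). They numbered 2 with the chromosome median removed, 2 with the local median removed, 2 with the length trend removed and 7 of 32 with the authors' values. The share of all genes by this rule was taken in the main fit only, so counts under other settings have none beside them. The cause was not tested. Leaving out 1 library gave 12 to 13 members higher and 2 to 4 lower (2 without ETS1 library 1), 2845 to 3962 genes higher and 2945 to 3720 lower, 3 to 5 members at 0.5 or more, and 10 to 14 other junction genes higher and 6 to 9 lower. The replicate numbers did not pair the libraries (correlation of same-numbered deviations -0.0456); with the replicate block 12 members were higher and 4 lower, and 3712 genes were higher and 3571 lower. With the local median removed, CDH2, called higher at 0.14, was -0.066, and PKP2, at 0.11, was -0.068. The other sign changes were in genes not called. JUP was -0.017 with trimmed-mean scaling, -0.017 with voom, -0.012 with the chromosome median removed, -0.056 with the length trend removed, -0.013 in the authors' table and -0.025 to 0.044 leaving out 1 library. PARD3 was -0.017, -0.019, -0.055, -0.071 and -0.013 under those 5 settings, -0.020 with quantile normalization, -0.033 with the local median removed and -0.014 to 0.031 leaving out 1 library. F11R was 0.0048 with the length trend removed. Leaving out 1 library gave -0.038 to 0.015 for F11R, -0.034 to 0.023 for PKP4 and -0.18 to 0.056 for CXADR.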

Other observations

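Of 14 other cadherin genes that are no members, all averaging under 1 FPKM, 6 were lower in both ETS1 libraries than in both controls, 3 were higher, 3 overlapped and 2 were at 0 in every library. By the same rule 38.9% of all tested genes were lower and 43.1% higher. Those genes average at least 1 FPKM, and no share was taken over genes as low as these cadherins. The genes below were picked out after their values were seen. CDH7 stood at 0.460 and 0.457 FPKM in the controls and at 0.0156 and 0.0190 in the ETS1 libraries. CDH20 was at 29 and 42 reads in the controls, against 3 and 1 in the deeper ETS1 libraries. Both genes lie on chromosome 18, where the median tested gene was higher in the ETS1 libraries. CDH12 had 53 and 52 reads against 28 and 30, CDH18 had 9 and 9 against 5 and 2, and CDH10 had 34 and 36 against 31 and 24. The sixth that was lower in FPKM was CDH26, with 71 and 88 reads against 97 and 95. The 3 that were higher were CDH22 (6 and 8 reads against 19 and 13), CDH8 (0 and 0 against 2 and 9) and CDH5 (0 and 0 against 2 and 2). In limma's fit with no filter, CDH7 (-0.52, adjusted p = 0.008), CDH20 (-0.25, adjusted p = 0.0219) and CDH12 (-0.16, adjusted p = 0.0319) were called lower and none of the 14 was called higher. That fit called 9.24% of 35055 genes lower and 10.3% higher.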
